A study of Mus musculus with 6 samples.

Results

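Mitochondrial fatty acid oxidation and ketogenesis were followed in mouse liver through 34 genes, chosen by their names in the deposited table of 34745 genes. All 34 were found once each, and all 34 passed the filter on low counts that left 12556 genes for testing. The study compared RNA from mice labelled Sox9HKO (called HKO, 3 libraries) with RNA from Sox9f/f mice, which carry floxed Sox9 alleles and which the labels call WT (3 libraries). All animals were 12-week-old C57BL/6 mice sampled at 48 h following partial hepatectomy (PHx), in which a portion of the liver is cut away, so no unoperated group stands beside them. Liver is the labelled tissue and hepatocyte the labelled cell type. The Cre driver, the exons removed, the animals behind each library, their sex, feeding state and hour of collection are not given in the sources used here. Nothing states that each library is a separate mouse, so a p-value reflects library-to-library spread alone, and that spread may be technical.

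Fatty acids enter hepatocytes with the help of membrane proteins, are bound in the cytosol and are joined to coenzyme A by acyl-CoA synthetases. The carnitine shuttle carries long acyl chains into the mitochondrion, where repeated rounds of dehydrogenation, hydration, a further dehydrogenation and thiolysis release acetyl-CoA. The liver turns much of this acetyl-CoA into ketone bodies during fasting, and the nuclear receptor PPAR-alpha is known for switching on many genes of the whole route. The members are given below in that order, from uptake to ketone bodies and then regulators.

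The libraries held 16659778 to 21168233 counts, and HKO 2 stood apart from the other 5. Its 13 mitochondrially encoded genes took 25.9% of all counts, against 12.1% to 16.3% elsewhere. Xist, the RNA that coats the inactive X chromosome of female cells, stood at 72.5 CPM (read counts scaled to a common library size, by the TMM method) in HKO 2 and between 0.107 and 0.333 CPM in the other libraries. The Y-linked genes Eif2s3y and Ddx3y were read in all 6 libraries, at 23.0 and 30.1 CPM in HKO 2 and at 41.0 to 50.3 and 42.1 to 66.6 CPM in the others. HKO 2 thus held RNA of Xist and of Y-linked genes together, and results are given with and without it where it moves them. All 11 hepatocyte markers matched in the table were read in every library, with sums of 82139 to 87018 CPM in HKO and 87375 to 108852 CPM in WT, and 4 of them were higher and 1 lower in HKO. Most of each sum was Alb, which was not called, at 49761 to 53180 CPM in HKO and 61219 to 77671 CPM in WT. The 10 endothelial markers added up to 172, 547 and 209 CPM in HKO 1, 2 and 3. Their WT totals were 114, 164 and 139 CPM. For 10 stellate cell markers the totals came to 147, 576 and 160.1 CPM, beside 140, 95.3 and 107 CPM. HKO 2 was far above the rest, and HKO 1 and HKO 3 also exceeded every WT library in both totals, by less. Among single markers, 1 of 10 endothelial (Lyve1) and 3 of 9 tested stellate ones were called higher, and none lower. Of 14 Kupffer cell and macrophage markers 13 were higher and 1 lower in HKO, with sums of 365 to 546 CPM in HKO and 402 to 427 CPM in WT. The lower marker, Mpeg1, gave 59.9 to 89.4 CPM of these sums in HKO and 191 to 209 CPM in WT. In the other 13 markers all HKO values lay above all WT values, as in 22.6% of the genes tested. Over 7 B and plasma cell markers the sums were 23.6, 27.3 and 20.1 CPM in HKO and 1.11, 2.303 and 2.14 CPM in WT, and over 8 biliary markers 40.6 to 63.4 CPM and 73.4 to 183 CPM. The T cell genes Cd3d and Cd8a, the fat cell genes Adipoq and Lep and the muscle genes Ckm and Myh4 were at 0 in all 6 libraries. The part of other cells in the differences below was not tested, and in such bulk samples fewer cells of a type and less RNA per cell cannot be told apart. Sox9 itself had 6.34, 4.30 and 4.78 CPM in HKO 1, 2 and 3 against 6.94, 13.7 and 11.4 CPM in WT 1, 2 and 3 (adjusted p = 0.0284 by edgeR's quasi-likelihood test with Benjamini-Hochberg adjustment, as for every adjusted p below), and this call did not hold without HKO 2, without HKO 3, without WT 2 or without WT 3 (adjusted p from 0.0503 to 0.0975).

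Most of the 34 genes were higher in HKO, and the activation step was the one that held falls. In HKO 20 members rose and 2 fell at an adjusted p below 0.05, while 12.1% of all genes tested were called higher and 11.2% lower. Of the 12 members that did not pass, 11 had a fold change above 0. The median log2 fold change of the members was 0.64, beside 0.02 over all 12556 genes. All 3 HKO values lay above all 3 WT values in 23 members, as in 22.6% of the genes tested, and below them in 2 members, as in 21.6%. Of the 20 rises 6 reached 2-fold on the fitted scale, beside 529 of the 1516 genes called higher over all genes tested. Added together the 34 genes took 0.602%, 0.593% and 0.607% of the counts in WT 1, 2 and 3 and 0.968%, 0.802% and 0.917% in HKO 1, 2 and 3. Of the counts left without the mitochondrially encoded genes, they took 0.718%, 0.685% and 0.716% in WT 1, 2 and 3. In HKO 1, 2 and 3 these shares were 1.10%, 1.08% and 1.05%. Without HKO 2 the count was 22 higher and 2 lower, with all 22 calls kept and Acaa2 and Acsm5 added. Without WT 3 it was 15 higher and 1 lower.

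**Figure D1:**
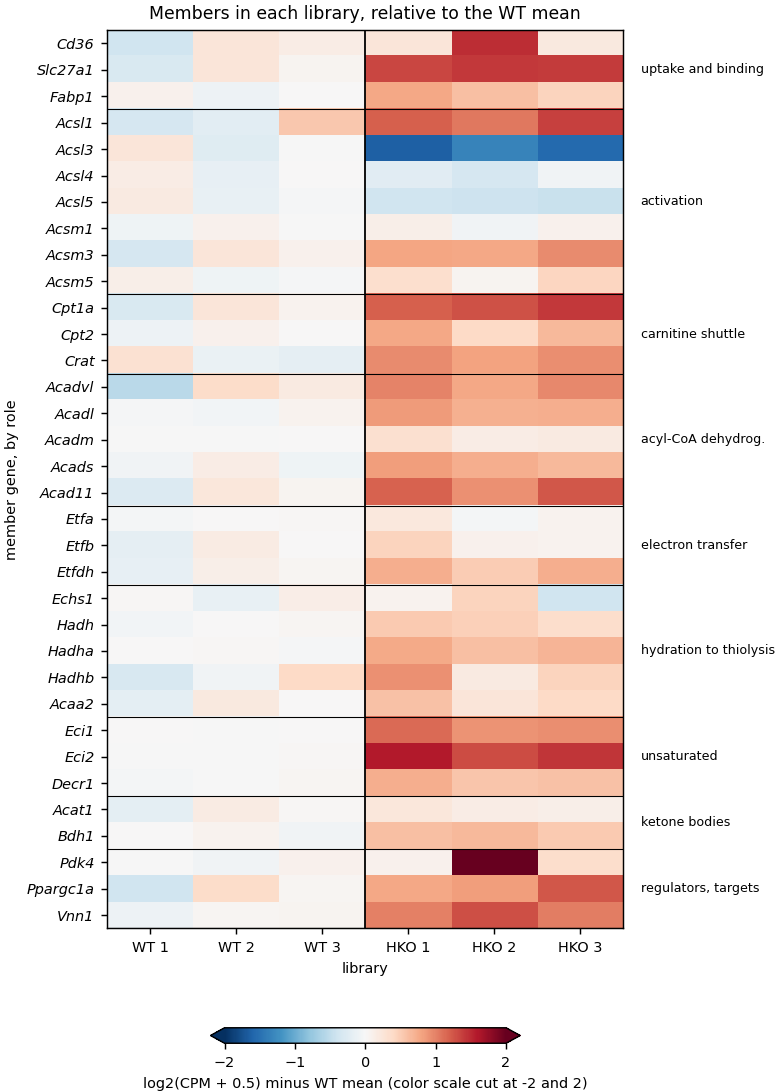
Each cell gives log2(CPM + 0.5) of 1 member (rows, by role) in 1 library (columns), minus the mean of the 3 WT libraries. The HKO columns are red for most members, Acsl3 is blue in all 3 HKO libraries, and Pdk4 and Cd36 are deep red in HKO 2 alone.

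The members differed widely in their level per gene length. On the deposited FPKM scale, which divides by gene length, Fabp1 led in both groups with 1735 ± 203 in WT and 2643 ± 337 in HKO (SD, n = 3), followed by Acaa2 with 353 ± 31.1 and 472 ± 76.6. At the other end, Slc27a1 stood at 0.709 ± 0.133 FPKM in WT and Ppargc1a at 1.01 ± 0.232 FPKM. Fabp1 thus stood several times above the next member, while the lowest 2 did not differ beyond their spread. The third level in WT was that of Acsm1 (117 ± 2.27 FPKM) and in HKO that of Cpt1a (169 ± 18.7 FPKM). Acsl5 (111 ± 18.5 FPKM) and Etfa (103 ± 3.39 FPKM) lay next in WT, and Acsl5 did not differ from either neighbour beyond its spread.

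**Figure D2:**
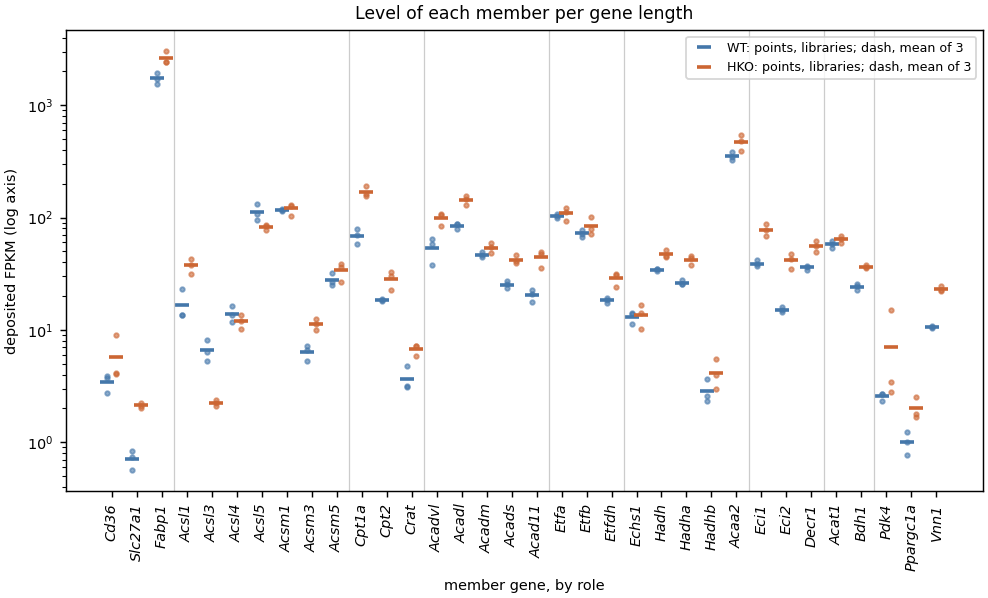
Deposited FPKM (log axis) of each member, with points for the 3 libraries of a group and a dash for their mean. Fabp1 and Acaa2 are highest in both groups, and Acsl1 has a mean of 16.7 FPKM in WT and 37.4 FPKM in HKO.

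Uptake and binding genes were higher in HKO for 2 of 3 members. Slc27a1 (ENSMUSG00000031808, chromosome 8, 71568927 to 71586708, plus strand), a fatty acid transport protein best known from muscle and fat, gave 5.75, 6.05 and 6.02 CPM in HKO 1, 2 and 3 against 1.50, 2.42 and 2.07 CPM in WT 1, 2 and 3. The groups were far apart at a low level, with the HKO mean 2.97 times that of WT. The log2 fold change was 1.57 (SE 0.23, adjusted p = 0.00318), the largest of all 34 members, and it stayed between 1.39 and 1.73 whichever library was left out.

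Fabp1 (ENSMUSG00000054422, chromosome 6, 71199827 to 71205023, plus strand) encodes the liver fatty acid binding protein. It measured 1634, 1448 and 1306 CPM in HKO 1, 2 and 3 against 1019, 887 and 964 CPM in WT 1, 2 and 3. Every HKO library was above every WT library (log2 fold change 0.61, SE 0.13, adjusted p = 0.0132), but the call did not hold without WT 2 (adjusted p = 0.0577) or without WT 3 (0.0672).

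The promoter of Fabp1 is shown because a search found in it a close match to the element that PPAR-alpha is known to bind as a pair with the receptor RXR. That element, called DR1, is a direct repeat of AGGTCA with 1 base between the copies. It was searched on both strands with at most 2 mismatches over its 12 fixed letters, in RefSeq promoters of GRCm38.p6 that run from 250 bases before to 50 bases after each start. The Fabp1 window is chr6:71199629-71199928 on the plus strand, with the match in capitals.
Fabp1 promoter: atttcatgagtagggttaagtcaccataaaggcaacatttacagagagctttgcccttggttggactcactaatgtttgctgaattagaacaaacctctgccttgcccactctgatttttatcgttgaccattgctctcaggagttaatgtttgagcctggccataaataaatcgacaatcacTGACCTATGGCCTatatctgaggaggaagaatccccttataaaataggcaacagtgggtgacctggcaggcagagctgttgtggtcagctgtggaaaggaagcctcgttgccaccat
The match has 1 mismatch, lies on the minus strand, so that the capitals show its reverse complement, and has its leftmost base at position -67 relative to the start. A promoter was found for 29 of the 34 members, in 33 windows, and 4 windows held a match (12.1%), beside 3.86% of all 32851 promoters and 3.19% of the 11993 promoters of genes tested here. The other 3 matches, each with 2 mismatches, lay in genes that were not called. Written on the strand that reads as the repeat, the 4 matches are given below in capitals throughout, at chr6:71199812-71199824 (Fabp1), chr5:17835947-17835959 (Cd36), chr7:140116492-140116504 (Echs1) and chr9:55512308-55512320 (Etfa).
Fabp1 match: AGGCCATAGGTCA
Cd36 match: AAGTCAGAGGCCA
Echs1 match: AGGTCACGGGTCC
Etfa match: AGGGCAAAGGTAA
Among members that were called higher, 1 of 21 windows held the repeat, that of Fabp1, and in members that were not called 3 of 10 did. Over all genes tested it was in 3.4% of the promoters of genes called higher and 3.17% of those not called. The cAMP response element TGACGTCA was in none of the 33 windows and in 1.79% of all promoters. These are letter matches in short windows and say nothing of binding.

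Cd36, a scavenger receptor that also takes up fatty acids, did not pass the test. It had 33.6, 80.0 and 32.7 CPM in HKO 1, 2 and 3 against 21.6, 33.5 and 31.7 CPM in WT 1, 2 and 3. Only HKO 2 lay clear of the WT range, so the log2 fold change of 0.75 (SE 0.36, adjusted p = 0.162) became 0.20 when HKO 2 was dropped (adjusted p = 0.491). Cd36 is also a gene of endothelial cells and macrophages. HKO 2 had the highest endothelial marker sum (547 CPM). Its Kupffer cell and macrophage marker sum was the lowest (365 CPM, against 402 to 546 CPM elsewhere). Mpeg1, which fell in HKO, weighs on the WT sums, and 13 of the 14 markers were higher in HKO 2 than in every WT library. Within HKO, however, all 14 markers were lower in HKO 2 than in HKO 1 and HKO 3. The part of these cells in the Cd36 value of HKO 2 was not tested.

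Activation was the step with falls as well as rises. Of 7 acyl-CoA synthetase genes 2 rose, 2 fell and 3 missed the threshold, and their median was 0.04 on the log2 scale. Acsl1 (ENSMUSG00000018796, chromosome 8, 46471041 to 46536051, plus strand), the main long-chain synthetase of liver and a PPAR-alpha target, gave 445, 407 and 501 CPM in HKO 1, 2 and 3 against 154, 169 and 285 CPM in WT 1, 2 and 3. The groups did not overlap, and WT 3 was the highest WT library (log2 fold change 1.16, SE 0.23, adjusted p = 0.0108).

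Acsl3 (ENSMUSG00000032883, chromosome 1, 78657825 to 78707743, plus strand), a synthetase of the endoplasmic reticulum and lipid droplets, went the other way. It measured 13.3, 16.3 and 13.9 CPM in HKO 1, 2 and 3 against 49.8, 35.6 and 41.8 CPM in WT 1, 2 and 3, so that the HKO mean was 0.342 of the WT mean. The log2 fold change of -1.55 (SE 0.15, adjusted p = 0.000678) was the lowest of the 34 members and lay between -1.66 and -1.43 with any library left out. Utp14b, whose exons cover a small stretch of the Acsl3 exon bases on the same strand, also fell (log2 fold change -1.21, adjusted p = 0.00637).

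Acsl5, a synthetase found on mitochondria and the endoplasmic reticulum, fell by a smaller amount. It had 262, 260.0 and 255 CPM in HKO 1, 2 and 3 against 391, 311 and 342 CPM in WT 1, 2 and 3, with no overlap (log2 fold change -0.43, SE 0.11, adjusted p = 0.0269). The call did not survive leaving out HKO 1, HKO 3, WT 1 or WT 3, each in turn (adjusted p from 0.0564 to 0.0910). Acsl4, which prefers arachidonic acid, stood at 69.7 to 83.4 CPM in HKO and 78.6 to 97.7 CPM in WT and did not pass (log2 fold change -0.21, adjusted p = 0.213).

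The medium-chain synthetases Acsm1, Acsm3 and Acsm5 lie in the same region of chromosome 7, with Acsm2 and Acsm4 between them. Acsm3 gave 85.0, 83.6 and 94.4 CPM in HKO 1, 2 and 3 against 38.7, 58.1 and 51.8 CPM in WT 1, 2 and 3, with no overlap (log2 fold change 0.82, SE 0.15, adjusted p = 0.00822). Its exons share 39.7% of their bases with Eri2 on the opposite strand, which stood at 5.42 to 15.2 CPM and did not pass (log2 fold change -0.64, adjusted p = 0.107). Acsm1 (269 to 309 CPM in HKO, 269 to 302 CPM in WT) and Acsm5 (83.0 to 108 CPM against 75.2 to 86.9 CPM) did not pass, with log2 fold changes of 0.04 and 0.28. Without HKO 2 Acsm5 passed (log2 fold change 0.38, adjusted p = 0.0415).

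**Figure D3:**
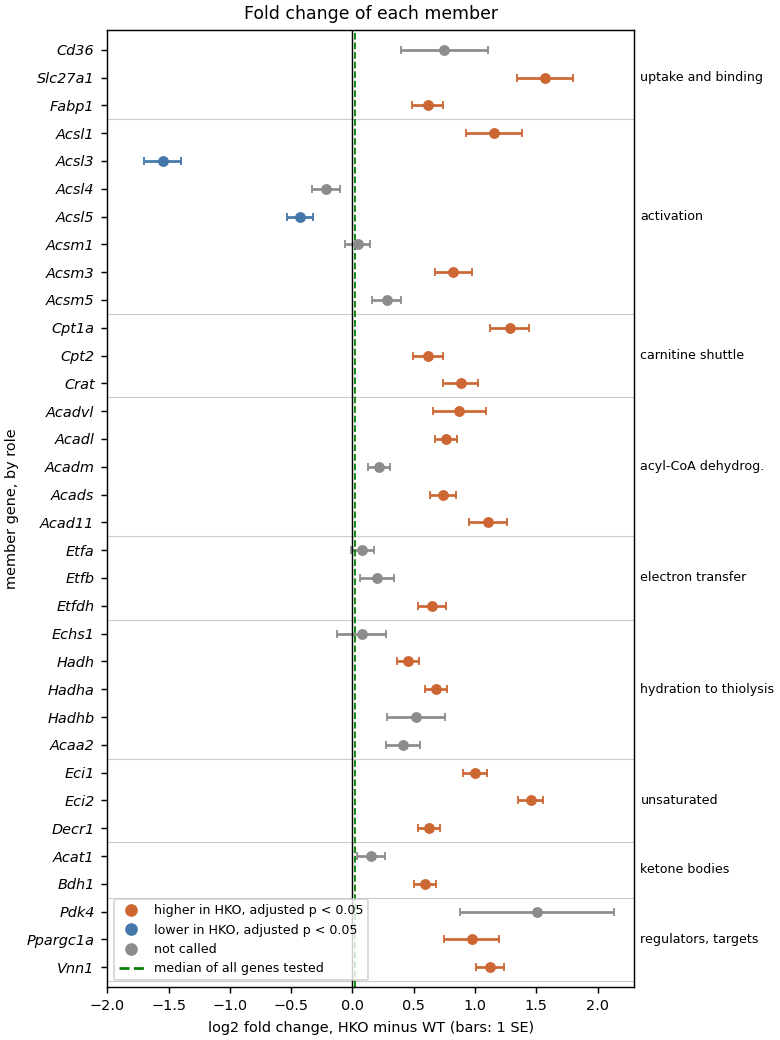
Fitted log2 fold change of each member (HKO minus WT, bars 1 SE), by role, with the median of all genes tested as a dashed line at 0.02. Members called higher lie between 0.45 and 1.57, and the 2 called lower are the synthetases Acsl5 and Acsl3.

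All 3 members of the carnitine shuttle rose. Cpt1a (ENSMUSG00000024900, chromosome 19, 3323301 to 3385732, plus strand) encodes the liver form of carnitine palmitoyltransferase 1, the step that malonyl-CoA inhibits and that sets the rate of entry. It measured 673, 718 and 790.2 CPM in HKO 1, 2 and 3 against 238, 350.7 and 308 CPM in WT 1, 2 and 3. The lowest HKO library was well above the highest WT library, and the log2 fold change was 1.28 (SE 0.16, adjusted p = 0.00154).

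Cpt2, which rebuilds acyl-CoA on the inner membrane, rose less. It had 168, 129 and 154 CPM in HKO 1, 2 and 3 against 91.5, 104 and 98.0 CPM in WT 1, 2 and 3 (log2 fold change 0.62, SE 0.12, adjusted p = 0.00981), and the call did not hold without WT 3 (adjusted p = 0.0505). Crat, a carnitine acetyltransferase for short chains, stood at 79.2 to 87.7 CPM in HKO and 39.9 to 56.2 CPM in WT, without overlap (log2 fold change 0.88, SE 0.14, adjusted p = 0.00489).

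The acyl-CoA dehydrogenases, which open each round of oxidation and differ in the chain length they accept, rose in 4 of 5 members. Acad11, which acts on very long chains, gave 502, 419 and 526 CPM in HKO 1, 2 and 3 against 183, 259 and 230.4 CPM in WT 1, 2 and 3 (log2 fold change 1.10, SE 0.15, adjusted p = 0.00268). Its mean in HKO was 2.15 times that in WT, the largest ratio of the 5. Acadl, the long-chain enzyme, measured 310.4, 283 and 286 CPM in HKO 1, 2 and 3 against 170.2, 167 and 181 CPM in WT 1, 2 and 3 (log2 fold change 0.76, SE 0.09, adjusted p = 0.00140). Acads, the short-chain enzyme, stood at 122 to 138 CPM in HKO and 73.0 to 86.2 CPM in WT (log2 fold change 0.74, adjusted p = 0.00289). All 3 genes were separated between the groups, and their calls held with any library left out.

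Acadvl and Acadm were less firm. Acadvl, the very-long-chain enzyme of the inner membrane, had 509.6, 438 and 499 CPM in HKO 1, 2 and 3 against 175, 327 and 289 CPM in WT 1, 2 and 3, with WT 1 far below the other WT libraries. The log2 fold change was 0.87 (SE 0.22, adjusted p = 0.0248), and the call was lost without HKO 1, HKO 3 or WT 3 (adjusted p = 0.0748, 0.0711 and 0.0711). Exons of Dvl2 on the opposite strand cover 42.9% of the Acadvl exon bases, and Dvl2 stood at only 1.29 to 4.06 CPM.

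Acadm, the medium-chain enzyme whose loss causes a well-known inherited disorder in people, gave 379, 338 and 343 CPM in HKO 1, 2 and 3 against 303, 302 and 307 CPM in WT 1, 2 and 3. The groups did not overlap, but the gap was small and the gene did not pass (log2 fold change 0.22, SE 0.09, adjusted p = 0.124).

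Electrons from these dehydrogenases pass to the heterodimer encoded by Etfa and Etfb and then to the membrane oxidoreductase encoded by Etfdh. Etfdh rose, from 156, 191 and 181 CPM in WT 1, 2 and 3 to 290.1, 249 and 290.4 CPM in HKO 1, 2 and 3 (log2 fold change 0.65, SE 0.11, adjusted p = 0.00694). Etfa stood at 220 to 261 CPM in HKO and 221 to 230.2 CPM in WT, and Etfb at 190 to 245 CPM and 160 to 203 CPM. Both overlapped between the groups and did not pass (log2 fold changes 0.08 and 0.20, adjusted p = 0.574 and 0.329). The exons of Etfb share 53.0% of their bases with the unnamed gene Gm45233 on the same strand, so its level is uncertain.

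The steps from hydration to thiolysis rose in 2 of 5 members. Hadha (ENSMUSG00000025745, chromosome 5, 30118304 to 30155162, minus strand), the alpha subunit of the mitochondrial trifunctional protein, measured 475, 429 and 452 CPM in HKO 1, 2 and 3 against 282, 286 and 277 CPM in WT 1, 2 and 3. The WT libraries lay within a narrow range and all HKO libraries far above it (log2 fold change 0.68, SE 0.09, adjusted p = 0.00227). Hadh, which acts on short 3-hydroxyacyl chains, stood at 238 to 269 CPM in HKO and 179 to 192 CPM in WT (log2 fold change 0.45, SE 0.09, adjusted p = 0.0115), a call lost without WT 3 (adjusted p = 0.0546).

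Hadhb, the beta subunit and thiolase of the same protein, starts 85 bases from Hadha on the opposite strand. It had 46.7, 28.0 and 33.6 CPM in HKO 1, 2 and 3 against 19.5, 23.4 and 32.6 CPM in WT 1, 2 and 3. HKO 2 lay below WT 3, so the groups overlapped, and the gene did not pass (log2 fold change 0.52, SE 0.24, adjusted p = 0.149). Although both subunits are needed for the complex, Hadhb stood at 2.85 ± 0.702 FPKM in WT beside 26.4 ± 1.34 FPKM for Hadha (SD, n = 3). No other GENCODE transcript matched Hadhb at 95% identity or more over 200 bases, and the reason for the gap was not tested. The Hadha window chr5:30154931-30155230, minus strand, is shown because it holds most of the shared start region. Neither element was found in it.
Hadha promoter: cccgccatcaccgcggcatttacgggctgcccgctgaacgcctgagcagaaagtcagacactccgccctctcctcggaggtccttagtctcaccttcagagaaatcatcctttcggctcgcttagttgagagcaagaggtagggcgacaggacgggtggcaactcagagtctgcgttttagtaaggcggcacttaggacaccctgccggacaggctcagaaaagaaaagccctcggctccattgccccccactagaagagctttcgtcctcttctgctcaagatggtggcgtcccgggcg

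Acaa2, the mitochondrial thiolase, gave 801, 633 and 706 CPM in HKO 1, 2 and 3 against 464, 607 and 538 CPM in WT 1, 2 and 3. The groups did not overlap, with HKO 2 just above WT 2, and the gene did not pass (log2 fold change 0.41, SE 0.14, adjusted p = 0.0689), whereas it did without HKO 2 (0.49, adjusted p = 0.0385). Echs1, the short-chain enoyl-CoA hydratase, measured 114, 148 and 82.5 CPM in HKO 1, 2 and 3 against 110.2, 97.6 and 120 CPM in WT 1, 2 and 3. The HKO libraries lay on both sides of WT (log2 fold change 0.08, SE 0.20, adjusted p = 0.812), and the sign turned once HKO 2 was dropped (-0.15, adjusted p = 0.551).

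The enzymes that prepare unsaturated fatty acids for oxidation all rose, 3 of 3, and Eci2 had the smallest adjusted p of the members. Eci2 (ENSMUSG00000021417, chromosome 13, 34977748 to 35027094, minus strand), an enoyl-CoA isomerase of mitochondria and peroxisomes, had 264, 215 and 237 CPM in HKO 1, 2 and 3 against 86.3, 86.6 and 88.6 CPM in WT 1, 2 and 3. The 3 WT libraries were almost level, and the HKO mean was 2.74 times theirs (log2 fold change 1.45, SE 0.10, adjusted p = 0.000243). Parts of Eci2 match the pseudogene Gm15280 and the antisense transcript Gm15287 at 96.3% and 95.9% identity, so its level is uncertain to that extent.

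Eci1, the mitochondrial isomerase, gave 93.4, 79.6 and 81.2 CPM in HKO 1, 2 and 3 against 42.8, 42.0 and 42.4 CPM in WT 1, 2 and 3. It too was level in WT (log2 fold change 0.999, SE 0.10, adjusted p = 0.000627). Decr1, the mitochondrial dienoyl-CoA reductase, stood at 213 to 241 CPM in HKO and 141 to 149 CPM in WT (log2 fold change 0.63, SE 0.09, adjusted p = 0.00331). All 3 calls held with any library left out.

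Of the ketone body genes among the members, Bdh1 rose and Acat1 did not pass. Bdh1, the dehydrogenase that makes beta-hydroxybutyrate, measured 235, 241 and 222 CPM in HKO 1, 2 and 3 against 154, 161 and 147 CPM in WT 1, 2 and 3 (log2 fold change 0.59, SE 0.09, adjusted p = 0.00363). Acat1, the mitochondrial acetoacetyl-CoA thiolase, stood at 265 to 286 CPM in HKO and 215 to 274 CPM in WT, with overlap (log2 fold change 0.15, SE 0.11, adjusted p = 0.358).

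Among the regulators and PPAR-alpha targets, Vnn1 and Ppargc1a rose. Vnn1, a pantetheinase that frees a building block of coenzyme A and is a known PPAR-alpha target, had 51.8, 63.2 and 52.6 CPM in HKO 1, 2 and 3 against 23.9, 26.4 and 26.7 CPM in WT 1, 2 and 3 (log2 fold change 1.12, SE 0.11, adjusted p = 0.000788). The lowest HKO library was far above the highest WT library. Ppargc1a, a coactivator of PPAR-alpha, gave 14.7, 15.2 and 20.4 CPM in HKO 1, 2 and 3 against 6.17, 10.8 and 8.60 CPM in WT 1, 2 and 3 (log2 fold change 0.97, SE 0.23, adjusted p = 0.0195), a call lost without HKO 3 or WT 3 (adjusted p = 0.0626 and 0.0721).

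Pdk4, the kinase that shuts pyruvate dehydrogenase and a classic fasting gene, did not pass, and its value rested on HKO 2. It measured 10.9, 63.4 and 13.2 CPM in HKO 1, 2 and 3 against 10.1, 9.66 and 10.9 CPM in WT 1, 2 and 3. HKO 1 was barely above WT, and the log2 fold change of 1.51 (SE 0.63, adjusted p = 0.118) became 0.24 (adjusted p = 0.283) without HKO 2. Fabp4, a fatty acid binding protein of fat cells, endothelium and macrophages and no member, was likewise highest in HKO 2, with 28.4 CPM there and 4.27 to 8.22 CPM elsewhere (adjusted p = 0.0616). It was chosen after its values were seen, and the part of other cells in the HKO 2 values was not tested.

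**Figure D4:**
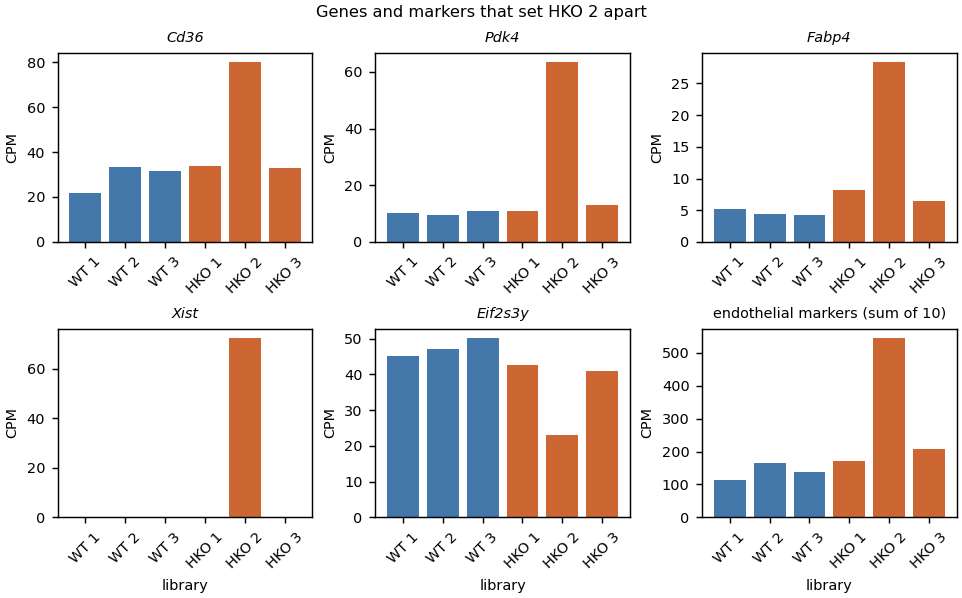
CPM in each library for Cd36, Pdk4, Fabp4, Xist, the Y-linked gene Eif2s3y and the sum of 10 endothelial markers. HKO 2 is highest in all panels but that of Eif2s3y, where it is lowest at 23.0 CPM.

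Ratios of partner genes within a library do not depend on how libraries are scaled, and 13 pairs were compared. The ratio of Acsl1 to Acsl5 counts was 0.76, 0.65 and 0.98 on the log2 scale in HKO 1, 2 and 3 and -1.34, -0.88 and -0.26 in WT 1, 2 and 3, so that Acsl1 counts exceeded those of Acsl5 in HKO alone. The ratio of Acsl1 to Acsl3 differed by 2.74 between the groups and that of Acsl1 to Acsl4 by 1.42. The ratio of Cpt1a to Cpt2 was higher in HKO by 0.69. The differences were -0.45 for Eci1 to Eci2, -0.57 for Etfa to Etfdh, -0.80 for Acsm1 to Acsm3, -0.57 for Acsm5 to Acsm3, -0.52 for Acadm to Acads and -0.43 for Acat1 to Bdh1, so that the second gene of each pair gained on the first. The ratios of Hadha to Hadhb, Etfa to Etfb and Acadl to Acadvl overlapped between the groups, with differences of 0.16, -0.12 and -0.15. In the other 10 pairs the groups were separate, each with an exact two-sided permutation p of 0.1, the smallest that 3 against 3 libraries allow (0.13 after Benjamini-Hochberg adjustment over the 13 pairs), so none could pass 0.05. How often other pairs of genes separate in this way was not tested. Pairs that join a called and an uncalled member, such as Acads and Acadm, partly repeat the calls given above.

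**Figure D5:**
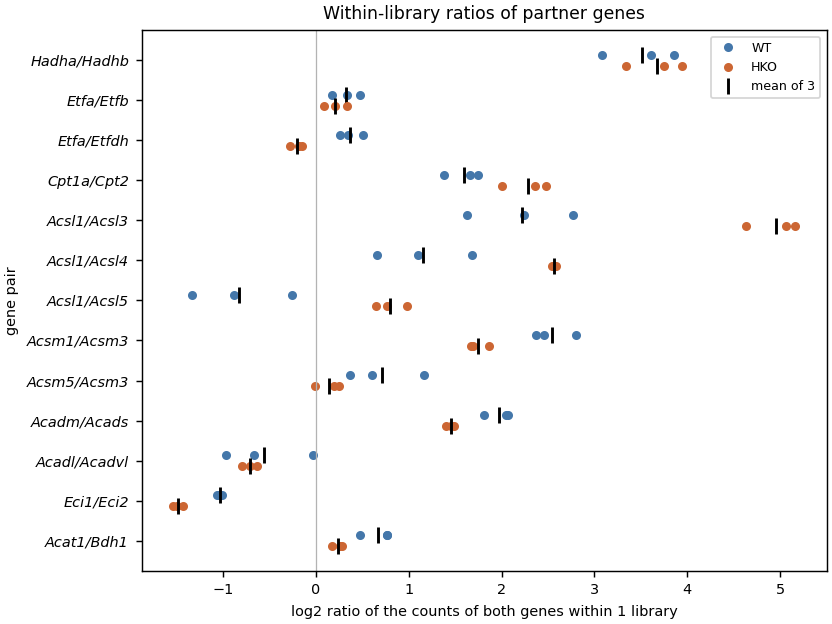
Log2 ratio of the counts of 2 members within each library, with a bar at the mean of 3. The groups are separate in 10 of 13 pairs, and they overlap for Hadha/Hadhb, Etfa/Etfb and Acadl/Acadvl.

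The other genes of the route held more rises than falls. Of 85 further genes listed for uptake, activation, transport, oxidation, ketone bodies and control, 82 were in the table and 75 were tested, of which 28 rose, 5 fell and 42 missed the threshold, around a median of 0.37 on the log2 scale. Over all genes tested 12.1% were called higher and 11.2% lower, around a median of 0.02. Without HKO 2, 36 rose and 6 fell. The mitochondrial carnitine carrier gene Slc25a20 had 166, 130.2 and 143 CPM in HKO 1, 2 and 3 against 70.4, 67.0 and 68.6 CPM in WT 1, 2 and 3 (log2 fold change 1.09, adjusted p = 0.000743). Slc22a5, which imports carnitine into cells, rose with a log2 fold change of 1.75 (adjusted p = 0.000298). Slc22a5 shares long stretches with Slc22a21 and Slc25a20 holds a stretch found in many transcripts, so both values are uncertain.

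Further genes of ketone body use and transport moved in both directions or did not pass. Oxct1, with which tissues other than liver use ketone bodies, stood at 3.49 to 4.88 CPM in HKO and 6.11 to 6.53 CPM in WT (log2 fold change -0.59, adjusted p = 0.0540), and passed without HKO 2 (0.0281). Of 3 monocarboxylate transporter genes listed, Slc16a6 did not pass (log2 fold change -0.14, adjusted p = 0.482) and is named after its values were seen. The other two moved in opposite directions, with Slc16a1 at 63.0 to 69.6 CPM in HKO and 118 to 132 CPM in WT (log2 fold change -0.91, adjusted p = 0.000763) and Slc16a7 at 70.4 to 88.5 CPM and 26.1 to 31.2 CPM (1.49, adjusted p = 0.000359).

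Decr2, the peroxisomal dienoyl-CoA reductase, had the smallest adjusted p of the further genes, with a log2 fold change of 1.36 (adjusted p = 0.000192). The peroxisomal thiolase gene Acaa1b, a close copy of Acaa1a and therefore uncertain, rose with 2.17. The mitochondrial thioesterase gene Acot2, which resembles Acot1, rose with 2.37, the synthetase gene Acsf2 with 0.90, and the nuclear receptor gene Esrra with 1.10. Acsf2 matches the pseudogene Gm5540 over 1848 bases at 99.0% identity, so its value is uncertain too. Fgf21, a hormone that PPAR-alpha induces in fasting, measured 6.18, 4.59 and 3.51 CPM in HKO 1, 2 and 3 against 0.611, 0.674 and 0.488 CPM in WT 1, 2 and 3 (log2 fold change 2.99, SE 0.32, adjusted p = 0.000967). Ppara itself had 44.0, 75.1 and 86.2 CPM in HKO 1, 2 and 3 against 32.3, 51.3 and 44.9 CPM in WT 1, 2 and 3. HKO 1 lay within the WT range, and Ppara did not pass (log2 fold change 0.68, SE 0.26, adjusted p = 0.0976) but did once HKO 1 was dropped (0.0287).

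The 5 further genes that fell were Slc16a1, Fabp5, Mmab, Dbi and Tmlhe, the last 4 named after their values were seen. Fabp5, the epidermal fatty acid binding protein, and Dbi, which binds acyl-CoA in the cytosol, fell with log2 fold changes of -1.66 and -0.75. Mmab, of the cobalamin route that serves odd-chain oxidation, and Tmlhe, of carnitine synthesis, fell with -1.37 and -0.58. Among the rises, Cpt1b, the muscle form of carnitine palmitoyltransferase 1, was also singled out after its values were seen, at 7.62 to 8.93 CPM in HKO and 0.222 to 1.80 CPM in WT (log2 fold change 3.22, adjusted p = 0.00522). Exons of the unnamed gene Gm44502 on the same strand cover 81.4% of those of Cpt1b.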

How the data were processed

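The members and gene lists were chosen with earlier results of these data known. The deposited table gives, per the file headers, raw read counts and FPKM for each gene in each library. The deposited counts are whole numbers with unequal totals and were taken as not normalized. The submitters' processing notes name HISAT2 2.0.4, StringTie 1.3.0 and the builds mm10 and GRCm38.p4, without the role of each. The handling of reads that match more than 1 gene was not stated there. No strand-marking step is described in the labels' protocols, so reads of a gene and of an overlapping antisense gene cannot be told apart. Coordinates are those of the deposited table on GRCm38. Exon overlaps came from GENCODE M21, which held all 34 members by identifier and 25 with the same coordinates, and similar transcripts from blastn 2.17.0.

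Counts went into edgeR 4.0.16 under R 4.3.3: filterByExpr (minimum count 10), TMM scaling and the quasi-likelihood F-test of HKO against WT on all genes, with Benjamini-Hochberg adjustment over the 12556 genes tested and a threshold of 0.05. Each SE was taken from the fold change and the root of its F statistic. The fits were tested on simulated data. Replicate libraries differed by more than counting noise (chi-square per degree of freedom 12.8 to 134), so none was counted as a duplicate. Alternatives were RLE and library-total scaling, no filter, DESeq2 1.42.0, limma-voom 3.58.1, a replicate block, leaving out the mitochondrially encoded genes, and leaving out each library. All 34 members are named. Of the further genes, the 10 with the smallest adjusted p and Oxct1, Slc25a20 and Ppara are named. Some items under that rule are not reported here.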

Additional observations from a re-analysis of the deposited data

How the results depend on the processing

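Under each of RLE scaling, no filter, limma-voom and leaving out the mitochondrially encoded genes, all 34 members kept their direction and their call. DESeq2 added Acaa2 (21 higher). With library totals, and with the replicate number as a block, 1 member was lower in place of 2, since Acsl5 no longer passed (adjusted p = 0.0664 and 0.0611). The replicate block left 20 members higher, and over all genes 1245 higher and 1115 lower. Same-numbered libraries were not paired by any label, and their deviations correlated by 0.01, -0.01 and 0.07 for numbers 1, 2 and 3, with only HKO 3 closest to its own number.

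With 1 library left out, 15 to 22 members were higher and 1 or 2 lower, and over all genes 722 to 1589 were higher and 682 to 1546 lower, the fewest without WT 3. The counts over all genes fell by over 1.5 times without HKO 3, WT 2 or WT 3. Of the further genes 20 to 36 were higher and 4 to 6 lower. Among the members 3 changed sign in such fits, none of them called. Acsm1 ranged from -0.015 (without HKO 1) to 0.10, with -0.0099 without WT 1, Etfa from -5.13e-05 (without HKO 1) to 0.14, and Echs1 from -0.15 (without HKO 2) to 0.26, with -0.0017 without WT 2. DESeq2, limma-voom and the block changed the calls of Ppara (adjusted p = 0.0383 by DESeq2, 0.0211 with the block), Oxct1 (0.0435 by limma-voom) and Sox9 (0.0652 with the block). The 13 within-library ratios moved by less than 1 SD with a pseudocount of 5 counts.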
